A study of Arabidopsis thaliana with 4 samples.

Results

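The phosphate starvation response and phosphate transport were followed through 40 *Arabidopsis thaliana* genes, taken by locus from the 33664 features of each deposited table. They cover the *SPX*, *PHO1* and *PHT1* families, purple acid phosphatases, sulfolipid and galactolipid synthesis, *IPS1* and *AT4*, *PHR1* and *PHL1*, *PHO2* and further phosphatase genes. Poly(A) RNA had been sequenced from whole 9-day-old Col-0 seedlings, kept at 23 °C on MS plates under days of 16 h light and nights of 8 h. There were 2 libraries labelled trm4b-4, a mutant named for *TRM4B* (AT2G22400), which encodes an RNA 5-methylcytosine methyltransferase, and 2 wild-type libraries. The nature of the allele is not given in the sources used here, no phosphate treatment is named, and both genotypes share the ecotype, age and growth conditions. The values were FPKM, fragments scaled by gene length and by each library's total of counted fragments, so levels can be set side by side between genes.

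The libraries held 21931590 to 26390263 counted fragments each. *TRM4B* itself was at 86.3 and 87.1 FPKM in libraries labelled trm4b-4, against 29.7 and 28.9 FPKM in the wild-type libraries. RNA from the locus was thus not lower under the mutant label, and gene-level values cannot tell whether that RNA is intact. Directions are therefore given throughout by the genotype that the labels state. Nothing in the labels tells whether replicate libraries came from separate cultures, and p-values here measure the spread between libraries, which may be technical. Among marker lists, 10 of 10 rapid touch and stress genes fell (summed level 175.9 and 175.6 FPKM in libraries labelled trm4b-4, against 1064 and 1069 FPKM in wild type). All 5 tested seed storage genes of 8 listed rose (14.8 and 14.7 FPKM summed in the libraries labelled trm4b-4, against 3.49 and 2.98 FPKM in wild type), with *CRU2* at 0 in every library. Of 10 nuclear photosynthesis genes 6 rose and 4 fell (33142 and 33418 FPKM summed in the libraries labelled trm4b-4, against 31956 and 31860 FPKM in wild type), and none was at 0. Over all 19027 tested genes 19.2% rose and 15.1% fell. The marker lists, with those used below, were chosen with earlier results of these data known, so their counts describe the lists only. Their part in the results below was not tested. In whole seedlings, fewer cells of a type and less RNA per cell cannot be told apart.

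Plants meet low phosphate with a program run by the transcription factor PHR1 and its relative PHL1, which bind a short motif before their target genes. SPX proteins sense inositol pyrophosphates, whose level follows the cell's phosphate status, and hold PHR1 back when phosphate is plentiful. Targets include phosphate transporters, secreted phosphatases and enzymes that replace phospholipids by sulfolipids and galactolipids. *PHO2* encodes a ubiquitin-conjugating enzyme that lowers transporter protein, the microRNA miR399 cuts *PHO2* RNA, and the RNAs of *IPS1* and *AT4* bind miR399 without being cut.

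Of the 40 genes, 29 passed the filter of 1 FPKM or more in at least 2 libraries, and all 29 were at 1 FPKM or more in all 4 libraries, so none was tested through 1 genotype alone. At a limma adjusted p under 0.05 on log2(FPKM + 1), 8 rose, 5 fell and 16 did not pass. Among all 19027 tested genes 19.2% were called higher and 15.1% lower, 34.3% in all. The members' counts lie near those shares. The small calls were less steady: *PHT2;1*, *SQD2* and *SRG3* lost theirs in 6 of 13 alternative settings each, *PAP12* in 4, *PHF1* in 2 and *PAP26* in 1. Without wild-type replicate 2 the members that rose were *SPX1*, *AT4*, *PS3* and *PAP17*, 4 in place of 8, and without trm4b-4 replicate 1 there were 5. Calls over all tested genes also became fewer when a library was left out. The median log2 change was 0.11 over the 29 genes and 0.03 over all tested genes. The genotypes did not overlap in 23 of the 29 genes, 17 higher and 6 lower in libraries labelled trm4b-4, against 39.4% and 29% of all tested genes. Most changes were small and a few rises were large. *SPX1* and *PS3* passed a test against a fold of 1.5, as did 0.631% of all tested genes in that direction. No member passed it in the other direction, where 1.74% of all tested genes did.

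**Figure D1:**
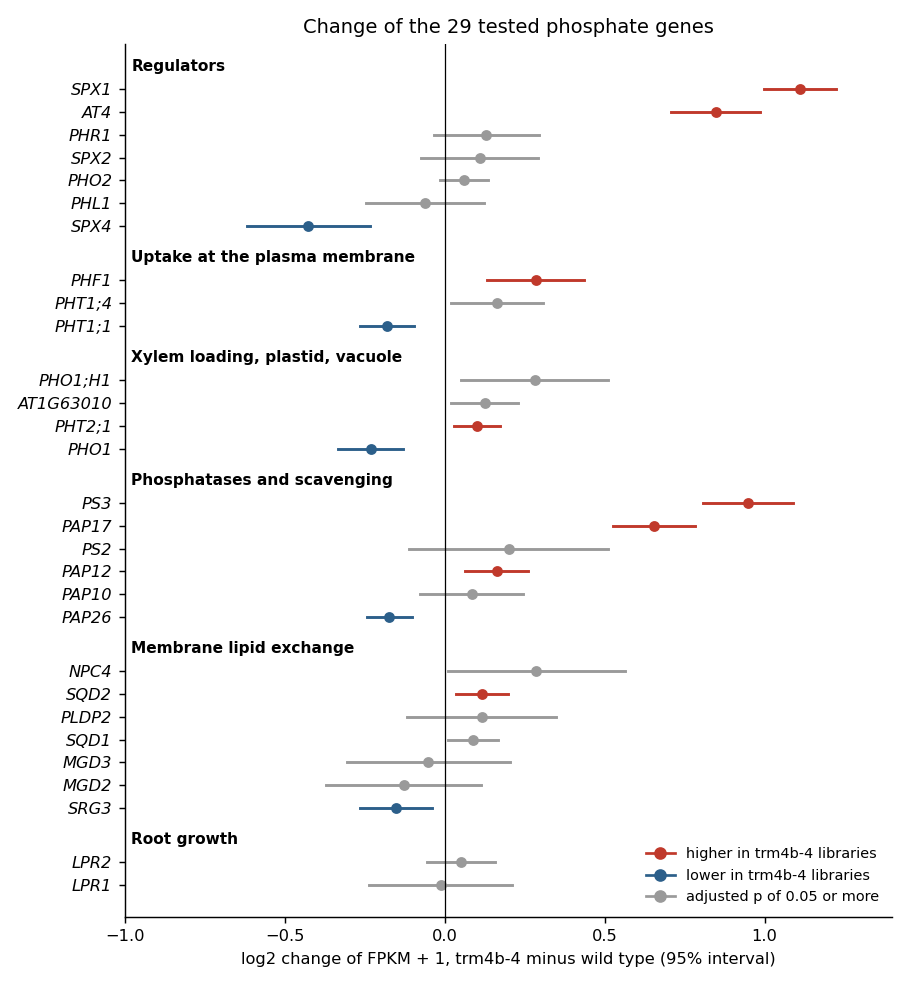
Log2 change of FPKM + 1 between the libraries labelled trm4b-4 and wild type (x axis) for the 29 tested genes, grouped by role. Points are limma estimates and lines their 95% intervals, n = 2 libraries per genotype. *SPX1*, *PS3*, *AT4* and *PAP17* lie at 0.65 or more, while most other genes lie between -0.23 and 0.29.

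**Figure D2:**
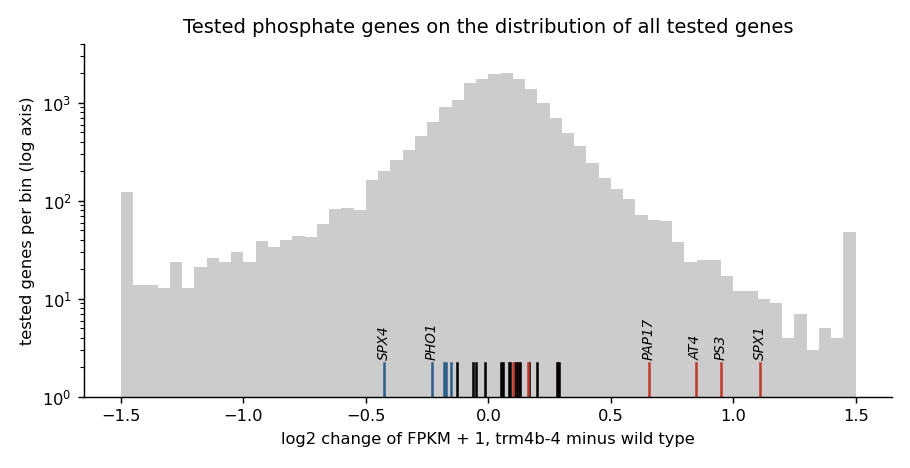
Distribution of the log2 change of FPKM + 1, trm4b-4 minus wild type, over the 19027 tested genes (grey bars, log axis, bins of 0.05), with the 29 phosphate genes as ticks, red for higher, blue for lower and black for those not past the threshold. The 155 genes beyond 1.5 in size are counted in the outermost bins. Most ticks sit in the bulk, and *PAP17*, *AT4*, *PS3* and *SPX1* sit in the right tail.

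The largest change among the 29 genes was that of a regulator, *SPX1* (AT5G20150, chromosome 5, 6802282 to 6803655 on the plus strand of TAIR10.1), which encodes a nuclear SPX protein that binds PHR1. It was at 37.3 and 36.0 FPKM in libraries labelled trm4b-4, against 15.9 and 17.0 FPKM in wild type. The groups were far apart, and the mean level was 2.23 times as high in the libraries labelled trm4b-4 (log2 change 1.11, SE 0.05, limma adjusted p = 1.46e-06). *AT4* (AT5G03545, chromosome 5, 894582 to 895517 on the plus strand), the RNA that sequesters miR399, was at 22.8 and 20.8 FPKM in libraries labelled trm4b-4, against 11.8 and 11.6 FPKM in wild type. Both libraries labelled trm4b-4 were again above both wild-type libraries (1.87 times, log2 change 0.85, SE 0.06, adjusted p = 2.43e-05). The test of *AT4* against a fold of 1.5 gave an adjusted p of 0.0553.

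The other *SPX* genes had other values. *SPX4*, a relative whose transcript is not induced by phosphate shortage, was at 4.66 and 5.02 FPKM in libraries labelled trm4b-4, against 7.08 and 6.62 FPKM in wild type. It fell, with no overlap between genotypes (log2 change -0.43, SE 0.08, adjusted p = 0.00534). *SPX2*, a close relative of *SPX1*, was at 15.7 and 13.2 FPKM in libraries labelled trm4b-4, against 13.5 and 13.1 FPKM in wild type, and the groups overlapped (log2 change 0.11, 95% interval -0.07 to 0.29, adjusted p = 0.331). The interval of *SPX1*, 1.00 to 1.22, lay above it, although the difference between the genes was not tested. *SPX3*, strongly induced in starved plants, stayed under 0.43 FPKM in every library, with 7 and 9 fragments in the libraries labelled trm4b-4 and 4 and 7 in wild type. The ratio of summed fragments per library total was 1.62 (exact 95% interval 0.707 to 3.87). Such intervals cover counting error only.

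The transcription factor genes themselves did not pass. *PHR1* was at 23.5 and 21.2 FPKM in libraries labelled trm4b-4, against 21.6 and 19.1 FPKM in wild type (log2 change 0.13, 95% interval -0.03 to 0.30, adjusted p = 0.199). *PHL1* was at 7.75 and 7.85 FPKM in libraries labelled trm4b-4, against 7.68 and 8.73 FPKM in wild type (-0.06, interval -0.25 to 0.12, adjusted p = 0.586). In both genes the genotypes overlapped. *PHO2*, the most abundant of the regulator RNAs, was at 63.4 and 63.5 FPKM in libraries labelled trm4b-4, against 59.9 and 61.8 FPKM in wild type (0.06, interval -0.01 to 0.13, adjusted p = 0.188). Its groups did not overlap, but the difference was small. Voom on recovered fragments called it higher (0.06, adjusted p = 0.0458). *IPS1*, the other miR399-binding RNA and a standard marker of starvation, was nearly absent, with 3 and 1 fragments in the libraries labelled trm4b-4 and 1 in each wild-type library (ratio 2.23, exact 95% interval 0.320 to 24.7).

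The sequences that join *AT4*, *IPS1* and *PHO2* are shown because the RNA of *AT4* rose while the change of *PHO2* did not pass. They were read from RefSeq TAIR10.1, 5′ to 3′. The 6 mature miR399 forms share the seed GCCAAAG, and 3 of them follow, with bases 2 to 8 in capitals.
miR399a (chr1:10227165-10227185, plus strand): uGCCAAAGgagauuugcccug
miR399b (chr1:23345387-23345407, minus strand): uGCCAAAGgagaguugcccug
miR399f (chr2:14445084-14445104, plus strand): uGCCAAAGgagauuugcccgg
The 5′ untranslated region of *PHO2* holds 5 windows that pair with miR399 with at most 1 mismatch. Of these, 2 windows follow, with capitals on the bases that face the seed. The first has no mismatch and 2 G:U pairs to miR399a, and the second has no mismatch and 2 G:U pairs to miR399f.
PHO2 site (chr2:14282106-14282126, minus strand): tagggcaaatcttCTTTGGCa
PHO2 site (chr2:14281884-14281904, minus strand): ttgggcaaatctcCTTTGGCa
In *AT4* and *IPS1* the paired stretch carries 3 extra bases, in capitals, opposite the middle of the microRNA, where a cut would fall. Beside that insertion each has 1 mismatch and 2 G:U pairs to miR399b.
AT4 site (chr5:895149-895172, plus strand): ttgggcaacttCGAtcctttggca
IPS1 site (chr3:3051224-3051247, plus strand): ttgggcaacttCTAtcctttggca
The 2 sites are alike outside the inserted bases, while the RNA of *AT4* was abundant and that of *IPS1* was not. The miR399 precursor genes were listed at 0 in all libraries except *MIR399c*, at 0.38 FPKM in trm4b-4 replicate 2 alone. Poly(A) libraries at gene level do not measure the mature microRNA.

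**Figure D3:**
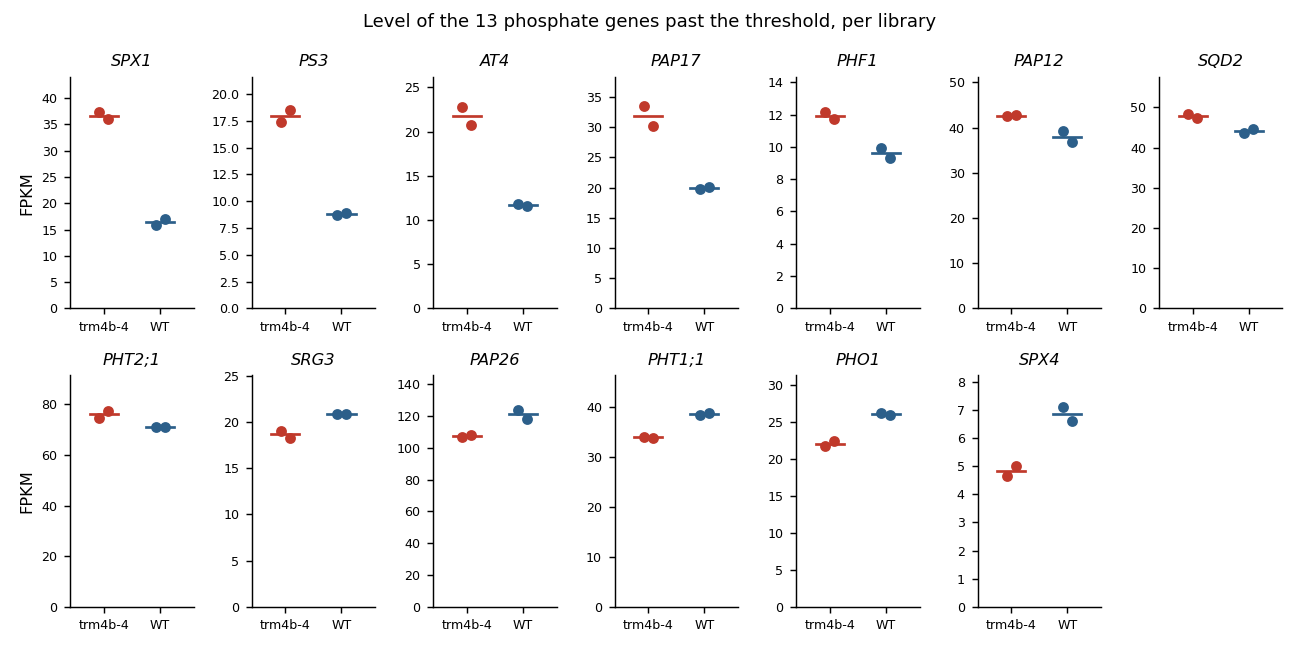
FPKM (y axes, each from 0) of the 13 phosphate genes past the threshold, with 1 point per library and a line at the mean of each genotype, n = 2. The genotypes do not overlap in any of the 13 panels, and *SPX1*, *PS3* and *AT4* show the widest gaps upward.

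Promoters were searched for GNATATNC, the P1BS motif that PHR1 binds, in the 1000 bases before each annotated gene start. The motif is its own reverse complement in form, so both strands give the same matches. It was found before 23 of the 40 genes (57.5%), against 5556 of 27432 protein-coding genes (20.3%). At least 2 matches were found before 12 of the 40 genes (30%), against 2.79% of all. Many members are known PHR1 targets, so the share describes the list. Of the 14 tested genes with the motif, 4 rose and 4 fell (median log2 change 0.08). Of the 15 without it, 4 rose and 1 fell (median 0.13). Over all tested genes 19.2% rose and 15.1% fell, and the difference between genes with and without the motif was not tested. *PS3* and *PAP17*, among the largest rises, had no match in this window, which says only that these letters are not there.

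The following windows, with the motif in capitals, set promoters of genes that rose beside those of genes that fell and of starvation markers that stayed near 0.
SPX1, rose (chr5:6801517-6801584, plus strand): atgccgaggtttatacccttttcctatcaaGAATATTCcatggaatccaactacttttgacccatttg
AT4, rose (chr5:894526-894581, plus strand): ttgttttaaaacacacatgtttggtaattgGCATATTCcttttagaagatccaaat
SPX4, fell (chr5:4980006-4980073, plus strand): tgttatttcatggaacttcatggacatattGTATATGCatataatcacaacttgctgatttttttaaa
PHT1;1, fell (chr5:17402889-17402956, minus strand): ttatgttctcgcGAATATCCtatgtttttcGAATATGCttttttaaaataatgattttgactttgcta
SPX3, under the filter (chr2:18606290-18606357, plus strand): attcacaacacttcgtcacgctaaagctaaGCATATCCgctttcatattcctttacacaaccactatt
IPS1, under the filter (chr3:3050407-3050478, plus strand): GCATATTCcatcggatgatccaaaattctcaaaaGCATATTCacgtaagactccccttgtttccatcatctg
The motif thus lay before genes of every outcome. *AT4* and *IPS1* share the form GCATATTC, and *AT4* has it 26 bases before its start. *SRG3*, which fell, and *PLDP2*, which did not pass, had the most matches, 4 each.

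**Figure D4:**
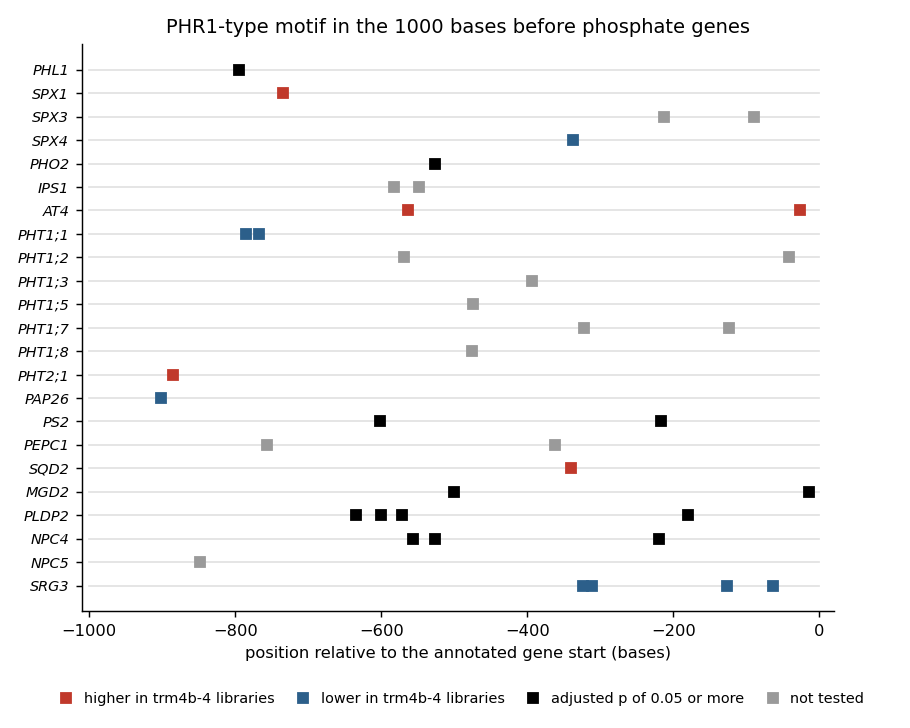
Positions of GNATATNC (squares) in the 1000 bases before the annotated start of the 23 genes that have it, x axis in bases from the start at 0. Squares are red for genes higher and blue for genes lower in the libraries labelled trm4b-4, black for genes not past the threshold and grey for genes not tested. All 4 classes are spread over the window.

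Uptake at the plasma membrane rests on the PHT1 proton-coupled phosphate transporters. *PHT1;1*, the main transporter gene of roots in phosphate-fed plants, was at 34.1 and 33.9 FPKM in libraries labelled trm4b-4, against 38.4 and 39.0 FPKM in wild type. It fell without overlap (log2 change -0.18, SE 0.04, adjusted p = 0.00663). It shares 42.4% of its 50-base stretches with *PHT1;2*, which lies near it on chromosome 5. How reads matching both genes were counted is not given in the sources used here. *PHT1;2* held only 2 or 3 fragments in each library, so few shared reads can have been counted to it. Whether shared reads were counted to *PHT1;1* or left out is not known, so its level is uncertain. Root hairs take up phosphate. Of 10 root hair markers 5 rose and none fell, against 19.2% and 15.1% of all tested genes. Their summed level was 56.9 and 58.9 FPKM in libraries labelled trm4b-4, against 44.2 and 42.0 FPKM in wild type, with none at 0. Their part in the value of *PHT1;1* was not tested.

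*PHT1;4*, a second root transporter gene, was at 10.97 and 10.75 FPKM in libraries labelled trm4b-4, against 9.51 and 9.65 FPKM in wild type. The groups did not overlap, but the test was not passed (0.16, 95% interval 0.02 to 0.31, adjusted p = 0.0776). Voom on recovered fragments called it higher (0.18, adjusted p = 0.0475). *PHF1*, which encodes the factor that lets PHT1 proteins leave the endoplasmic reticulum, rose, with 12.1 and 11.7 FPKM in libraries labelled trm4b-4, against 9.94 and 9.30 FPKM in wild type (0.28, SE 0.07, adjusted p = 0.0115). The remaining 6 *PHT1* genes were under the filter. *PHT1;2* had 5 fragments in all in the libraries labelled trm4b-4, against 6 in wild type (ratio 0.929, exact 95% interval 0.224 to 3.65). *PHT1;5*, known for moving phosphate between source and sink organs, had 12 against 15 (0.892, 0.381 to 2.04), and *PHT1;9* had 17 against 24 (0.790, 0.398 to 1.53). All of these intervals include a ratio of 1. *PHT1;8* had 0 fragments in the libraries labelled trm4b-4, against 2 in wild type replicate 1. *PHT1;3* and *PHT1;7* were at 0 in every library, which at 3 fragments over a genotype allows up to 0.0426 and 0.0333 FPKM in libraries labelled trm4b-4, against 0.0382 and 0.0299 FPKM in wild type.

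Of 4 genes of distribution inside the plant and the cell, 1 rose and 1 fell, and the difference between them was not tested. *PHO1*, the exporter gene of root vascular tissue that loads phosphate into the xylem, was at 21.8 and 22.4 FPKM in libraries labelled trm4b-4, against 26.2 and 26.0 FPKM in wild type. It fell (-0.23, SE 0.04, adjusted p = 0.00466). Of 10 tested endodermis markers of 11 listed 1 fell and none rose, against 15.1% and 19.2% of all tested genes. Their summed level was 64.1 and 66.1 FPKM in libraries labelled trm4b-4, against 72.7 and 71.5 FPKM in wild type, with none at 0. No list of vascular markers was used, and the part of the endodermis markers in the value of *PHO1* was not tested. Its homologue *PHO1;H1* was at 4.18 and 4.66 FPKM in libraries labelled trm4b-4, against 3.26 and 3.67 FPKM in wild type (0.28, 95% interval 0.05 to 0.51, adjusted p = 0.0622). The genotypes did not overlap in either homologue, and the difference between the homologues was not tested. Voom on recovered fragments called *PHO1;H1* higher (0.36, adjusted p = 0.00591). *PHT2;1*, the low-affinity transporter gene of plastids, was at 74.8 and 77.5 FPKM in libraries labelled trm4b-4, against 70.9 and 70.9 FPKM in wild type (0.10, SE 0.03, adjusted p = 0.0386). This small rise lost its call in 6 of 13 alternative settings. AT1G63010, annotated as a major facilitator protein with an SPX domain, was at 24.95 and 25.14 FPKM in libraries labelled trm4b-4, against 23.4 and 22.4 FPKM in wild type (0.13, 95% interval 0.02 to 0.23, adjusted p = 0.0679), and voom called it higher (0.13, adjusted p = 0.0145).

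Among genes that free phosphate from organic sources or move phosphate esters, *PS3* and *PAP17* rose most. *PS3* (AT3G47420, chromosome 3, 17472297 to 17475274 on the minus strand), annotated as a putative glycerol-3-phosphate permease, was at 17.4 and 18.5 FPKM in libraries labelled trm4b-4, against 8.74 and 8.93 FPKM in wild type. That is 2.04 times as high (0.95, SE 0.06, adjusted p = 1.23e-05, and 0.00891 against a fold of 1.5). *PAP17* (AT3G17790, chromosome 3, 6089381 to 6091231 on the plus strand), a purple acid phosphatase gene also known from senescence and oxidative stress, was at 33.5 and 30.2 FPKM in libraries labelled trm4b-4, against 19.71 and 20.03 FPKM in wild type. It was 1.605 times as high (0.65, SE 0.06, adjusted p = 6.47e-05), and the adjusted p against a fold of 1.5 was 1. A gene on the opposite strand, AT3G17800, overlaps it over 4.54% of its 50-base stretches and rose less (0.21, adjusted p = 0.00373).

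The other purple acid phosphatases moved little. *PAP12*, a secreted enzyme of starved roots, was at 42.5 and 42.7 FPKM in libraries labelled trm4b-4, against 39.3 and 36.7 FPKM in wild type (0.16, SE 0.04, adjusted p = 0.0205). *PAP26*, the main vacuolar and secreted acid phosphatase gene and the most abundant of the 40 RNAs, fell, with 106.7 and 107.9 FPKM in libraries labelled trm4b-4, against 124.0 and 118.3 FPKM in wild type (-0.17, SE 0.03, adjusted p = 0.00309). *PAP10*, a phosphatase of the root surface, was at 11.21 and 12.53 FPKM in libraries labelled trm4b-4, against 11.19 and 11.05 FPKM in wild type (0.08, 95% interval -0.08 to 0.25, adjusted p = 0.390). It shares 6.61% of its 50-base stretches with AT2G06625 on the opposite strand, and the strand setting of the counting is not given. *PAP12* and *PAP26* thus changed in opposite directions, and the difference between them was not tested. *PAP12* lost its call in 4 of 13 alternative settings and *PAP26* in 1.

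The starvation-induced phosphatase gene *PS2* was low, at 1.83 and 2.52 FPKM in libraries labelled trm4b-4, against 1.84 and 1.65 FPKM in wild type, and the groups overlapped (0.20, 95% interval -0.11 to 0.51, adjusted p = 0.292). *PEPC1*, a phosphatase gene acting on phosphocholine and phosphoethanolamine, had 28 fragments in the libraries labelled trm4b-4, against 25 in wild type (ratio 1.25, exact 95% interval 0.702 to 2.23). *RNS1*, a secreted ribonuclease gene, was at 0.567 and 0.581 FPKM in libraries labelled trm4b-4, against 0.145 and 0.322 FPKM in wild type. Its 27 fragments against 12 gave a ratio of 2.51 (exact 95% interval 1.23 to 5.44). The fit without a filter gave *RNS1* a change of 0.36 and a limma adjusted p of 0.0449. That change is of log2(FPKM + 1), which at these levels is much smaller than the change in the ratio.

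Among the tested members, most genes of membrane lipid exchange, by which starved plants save phospholipid phosphate, changed little. The low *NPC4* had the largest change of them and did not pass. In a further list given below, *DGD1* and *GDPD2* had larger changes of log2(FPKM + 1). *SQD2*, the last enzyme of sulfolipid synthesis, was at 48.4 and 47.4 FPKM in libraries labelled trm4b-4, against 43.5 and 44.7 FPKM in wild type (0.12, SE 0.04, adjusted p = 0.0362). *SQD1*, the enzyme before it, was at 51.7 and 51.9 FPKM in libraries labelled trm4b-4, against 49.3 and 48.0 FPKM in wild type (0.09, 95% interval 0.01 to 0.17, adjusted p = 0.0819). Both sulfolipid genes were slightly higher without overlap. *SQD1* passed under quantile normalization (0.12, adjusted p = 0.0358), and the difference between the genes was not tested. The galactolipid synthases of starved plants did not pass, *MGD2* with -0.13 (95% interval -0.37 to 0.11, adjusted p = 0.385) and *MGD3* with -0.05 (-0.31 to 0.20, adjusted p = 0.755).

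Of the phospholipases, *NPC4* was at 1.87 and 1.66 FPKM in libraries labelled trm4b-4, against 1.17 and 1.37 FPKM in wild type, without overlap (0.29, 95% interval 0.01 to 0.56, adjusted p = 0.102). It passed without the mean-variance trend (0.29, adjusted p = 0.0478). At such low levels adding 1 FPKM understates the change, and the ratio of mean levels was 1.39. The log2 change was 0.45 with a pseudocount of 0.1 FPKM (limma adjusted p = 0.109) and 0.48 under voom (adjusted p = 0.0523). *PLDP2*, a phospholipase D gene, had a change of 0.12 (95% interval -0.12 to 0.35, adjusted p = 0.420). *NPC5*, which lies beside *NPC4* on chromosome 3, was at 0 in all libraries, which allows up to 0.0393 FPKM in libraries labelled trm4b-4, against 0.0353 FPKM in wild type. *SRG3*, a glycerophosphodiester phosphodiesterase gene, was at 19.0 and 18.3 FPKM in libraries labelled trm4b-4, against 20.8 and 20.9 FPKM in wild type (-0.15, SE 0.05, adjusted p = 0.0422). It shares 42.8% of its 50-base stretches with AT3G02030 on the opposite strand, at 2.00 and 2.59 FPKM in libraries labelled trm4b-4, against 2.31 and 2.02 FPKM in wild type. The strand setting of the counting is not given in the sources used here, so the value of *SRG3* is uncertain.

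*LPR1* and *LPR2* encode oxidases of the root tip that arrest root growth on low phosphate. *LPR1* was at 2.84 and 2.81 FPKM in libraries labelled trm4b-4, against 2.88 and 2.85 FPKM in wild type (-0.01, 95% interval -0.24 to 0.21, adjusted p = 0.934). *LPR2* was at 24.2 and 25.1 FPKM in libraries labelled trm4b-4, against 23.4 and 24.2 FPKM in wild type (0.05, -0.06 to 0.16, adjusted p = 0.438).

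A further list held 49 genes of phosphate sensing, transport, phosphatases and lipid exchange. It was chosen by function, with earlier results of these data known. Of its 40 tested genes 7 rose and 6 fell (median log2 change -0.00). These counts lie near the shares over all tested genes, 19.2% higher and 15.1% lower. None passed the test against a fold of 1.5. The rises with the smallest adjusted p were *DGD1*, a galactolipid synthase gene (0.36, adjusted p = 0.000381), *PHT3;1*, a mitochondrial phosphate carrier gene (0.15, adjusted p = 0.00174), and *ITPK1*, an inositol phosphate kinase gene (0.27, adjusted p = 0.00565). The falls with the smallest were *ZAT6*, a zinc finger gene that affects phosphate homeostasis, at 10.98 and 10.66 FPKM in libraries labelled trm4b-4, against 18.9 and 18.5 FPKM in wild type (-0.74, adjusted p = 3.02e-05), *GDPD2*, a relative of *SRG3* (-0.69, adjusted p = 0.000237), and AT1G68670, annotated as a myb-like factor (-0.37, adjusted p = 0.000629).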

How the data were processed

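Poly(A) RNA libraries were made with a directional kit, per the labels' protocols. TopHat2 2.0.12, Cufflinks 2.1.1, HTSeq 0.6.1, Cuffdiff and TAIR10 are named, per the submitters' processing notes; what each did, the strand setting and how multiply matching reads were counted is not given in the sources used here. The deposited FPKM values, 1 table per library, are whole fragments divided by gene length and library total, which gave back totals and fragments. For all 24892 features above 0, a single length of at most 20000 bases gave whole fragments in all 4 libraries, within 6e-10 FPKM plus a relative 6e-10. The length was an annotated one for 3787, so for the others the fragments are known only up to a whole multiple. Recovered fragments summed to 101.47 to 101.56% of the library totals. The mutant's genotype field spells the allele tm4b-4, the titles trm4b-4.

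Genes reaching 1 FPKM in 2 or more libraries were tested with limma 3.58.1 in R 4.3.3 on log2(FPKM + 1), which understates the change of low genes, with a mean-variance trend, two-sided, Benjamini-Hochberg adjusted over 19027 genes. Minimum sizes used limma's treat at a fold of 1.5. Members under the filter are given as fragments with exact 95% intervals, or a floor of 3 fragments over a genotype; both cover counting error only, as copies were not marked. Voom on recovered fragments called 4353 genes higher and 3171 lower, against 3648 and 2882. Alternatives were other pseudocounts, filters and scalings, a replicate block and leaving out each library. All members are accounted for; of the further list, up to 3 genes per direction with the smallest adjusted p are named. *MIR399c* was singled out after its values were seen. The members and lists were chosen with earlier results of these data known. The procedure was run on simulated data with known folds of 1.5 or more, so that run does not speak to smaller changes. Sequences, positions and names came from RefSeq TAIR10.1, which named 39 of the 40 loci; the tables hold no coordinates.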

Additional observations from a re-analysis of the deposited data

How the results depend on the processing

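Over 13 alternatives all 13 called members kept their direction, and *SPX1*, *AT4*, *PS3*, *PAP17*, *SPX4*, *PHO1* and *PHT1;1* kept their call in each. *PHT2;1*, *SQD2* and *SRG3* lost it in 6 each, *PAP12* in 4, *PHF1* in 2 and *PAP26* in 1, so these rest on small differences between 2 libraries a genotype. Leaving out 1 library gave 4 to 6 rises in place of 8, with 4 without wild-type replicate 2 and 5 without trm4b-4 replicate 1, and 4 falls in place of 5. The members' median then lay between 0.08 and 0.11 (0.0847 to 0.1056), and 1 to 2 members passed a fold of 1.5, with 1 without wild-type replicate 1. The further list had 3 to 7 rises, with 3 without wild-type replicate 2, and 4 to 7 falls. Calls over all tested genes became fewer in both directions in each of these fits too. A lone library is assumed there to vary like the other genotype. Without a mean-variance trend 3 members fell and 3 genes of the further list rose, and voom gave 12 member rises and 10 falls in the further list. All tested genes gave 2681 rises and 2227 falls without the trend, and 4353 and 3171 under voom. Median-of-ratios rescaling gave medians of 0.0791 for members and 0.0026 for all genes. Changes that had not passed turned sign for *PHL1* without wild-type replicate 2 (0.0197; -0.1447 at the other end of its range over left-out libraries) and, without trm4b-4 replicate 1, for *SPX2* (-0.0056; 0.22 at the other end) and *MGD3* (0.0065; -0.1089 at the other end). *SPX2* passed without trm4b-4 replicate 2 (0.22, adjusted p = 0.0489). The causes were not tested. With the replicate number as a block, 8 members rose and 5 fell, 3 passed a fold of 1.5, and 7 genes of the further list rose and 6 fell; all genes gave 3768 rises and 3001 falls. Same-numbered libraries showed no common deviation (correlation -0.04 across 19027 genes, which are not independent replicates). With 1 difference per genotype, this cannot tell whether they were handled together, which the labels do not say. Depth limits the 11 members under the filter.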
